A study of Mus musculus with 57 samples.

Results

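Imprinted growth genes were followed in the adipose tissue of mice that carry a mutant mitofusin 2, a protein of the outer mitochondrial membrane that joins mitochondria to each other. The 10 genes, Peg3, Mest, Igf2, H19, Dlk1, Meg3, Ndn, Cdkn1c, Plagl1 and Grb10, were chosen by name from the 52853 genes of the deposited count tables, and Peg3 was selected on its low level in the brown fat of mutant mice. The levels of Peg3 in brown fat, and every value of the other genes in the same contrast, are therefore given below as a description without a test. The 10 genes and the gene lists used below were chosen with earlier results of these data known. Calls among them are not independent of that choice.

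Most autosomal genes are transcribed from both parental copies, whereas an imprinted gene is transcribed mainly from the copy inherited from 1 parent, with methylation laid down in the egg or the sperm as the mark that tells the copies apart. Imprinted genes lie in clusters, and many of them set the size of the fetus, the placenta and the fat depots. In adipose tissue Mest is known as a marker of fat mass expansion, Dlk1 as a marker of preadipocytes, and Peg3, Ndn, Plagl1 and Cdkn1c as regulators of growth or differentiation.

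RNA sequencing covered 6 groups of male mice on a C57BL/6J background, either wild-type (WT) or knock-in (KI) for Mfn2-R707W. The KI mice were homozygous, carried the change in every cell from conception and descended from a single founder, and they shared cages with littermates of mixed genotype. From 5 weeks of age the animals ate either a high-fat diet (HFD, 45% of calories from fat) or chow for 6 months. The groups were brown adipose tissue (BAT) on HFD with 6 WT and 6 KI mice, inguinal white adipose tissue (WAT) on HFD with 8 WT and 8 KI mice, and inguinal WAT on chow with 7 WT and 6 KI mice. Each of the 41 columns of counts is 1 mouse and tissue, and p-values measure the spread between mice. Levels are given in CPM, the count of a gene relative to the scaled total of its library, differences as log2 fold changes from edgeR's quasi-likelihood test with their standard error (SE), and a gene is called when its p, adjusted over all genes of the comparison, lies below 0.01.

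Total counts were 8042591 to 10522554 per mouse in BAT, 17572752 to 25680411 in inguinal WAT on HFD and 8668279 to 11720458 on chow. The summed CPM of 6 brown adipocyte markers was 12100 to 22100 in BAT and 12.4 to 855 in inguinal WAT. That of 4 markers listed for inguinal WAT (Hoxc8, Hoxc9, Hoxc10 and Tcf21) was 83.8 to 178 there and 2.1 to 13.3 in BAT, but Tcf21 was at 0 in BAT and on HFD in both depots. A list of 4 brown depot genes did not separate the depots as a sum, since Zic1 and Ebf2 were called higher and Epsti1 and Lhx8 lower in BAT.

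Some libraries stood apart. WT mouse 4 on chow went against its depot label: Hoxc10 was 0.151 CPM there and 15.2 to 48.9 CPM in the other 28 inguinal samples, Hoxc9 was 4.59 against 10.5 to 25 CPM, and Hoxc8 was within range at 79.5 CPM. That library also held the mesothelial genes Wt1 (10.4 CPM), Upk3b (34.9 CPM) and Msln (16.8 CPM), which reached at most 0.387 CPM in the others, and 66 counts of Tcf21; these genes were picked after their values were seen. Called genes and list counts on chow are given with and without it, alone or together with KI mouse 4. The summed CPM of skeletal muscle markers reached 73100 in KI mouse 4 on chow against at most 327 in the other 5 KI mice there, and 3080 and 3500 in WT mice 1 and 2 of the BAT set. Lymphocyte markers were high in some inguinal samples, at 369 CPM in WT mouse 2 and 529 CPM in KI mouse 2 on HFD and 345 CPM in KI mouse 3 on chow. Mfn2 itself averaged 160 CPM ± 20.7 (SD, n = 8) in WT and 201 ± 25.8 in KI inguinal WAT on HFD, and its transcript level does not check the label, since a missense allele is still transcribed.

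On chromosome 7 lie 5 of the 10, namely Peg3 (GRCm38, 6703892 to 6730431, minus strand), Ndn (62346569 to 62350262, plus strand), H19 (142575529 to 142578143, minus strand), Igf2 (142650766 to 142666816, minus strand) and Cdkn1c (143458339 to 143461050, minus strand). Chromosome 12 holds Dlk1 (109452823 to 109463336) and Meg3 (109541001 to 109571726), both on the plus strand. Mest is on chromosome 6 (30723547 to 30748465, plus strand), Plagl1 on chromosome 10 (13060504 to 13131694, plus strand) and Grb10 on chromosome 11 (11930508 to 12038683, minus strand). H19 and Meg3 are long noncoding RNAs, and the other 8 genes code for proteins.

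Promoter sequences are shown for the genes called between genotypes in inguinal WAT on either diet, Peg3, Mest and Grb10, because the methylation that marks imprinted copies is carried by cytosines followed by guanine. Each is the RefSeq window of 300 bases in GRCm38.p6, from 250 before to 50 after a transcription start, read 5′ to 3′ on the strand of the gene, with every CG in capitals. Methylation itself was not measured in these mice.
Peg3, chr7:6730370-6730669, minus strand: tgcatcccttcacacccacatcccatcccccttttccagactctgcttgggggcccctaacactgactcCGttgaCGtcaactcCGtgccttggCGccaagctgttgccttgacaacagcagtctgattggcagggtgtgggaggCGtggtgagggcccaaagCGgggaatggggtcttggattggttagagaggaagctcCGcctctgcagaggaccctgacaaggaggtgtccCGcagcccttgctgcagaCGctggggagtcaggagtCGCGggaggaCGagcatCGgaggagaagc
Mest, upstream start, chr6:30733256-30733555, plus strand: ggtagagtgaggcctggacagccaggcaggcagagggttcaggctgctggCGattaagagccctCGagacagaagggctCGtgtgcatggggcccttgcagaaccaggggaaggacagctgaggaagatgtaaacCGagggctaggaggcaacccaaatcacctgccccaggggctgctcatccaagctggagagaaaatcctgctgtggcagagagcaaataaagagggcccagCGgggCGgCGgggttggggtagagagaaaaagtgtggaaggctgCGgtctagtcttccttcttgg
Mest, downstream start, chr6:30737803-30738102, plus strand: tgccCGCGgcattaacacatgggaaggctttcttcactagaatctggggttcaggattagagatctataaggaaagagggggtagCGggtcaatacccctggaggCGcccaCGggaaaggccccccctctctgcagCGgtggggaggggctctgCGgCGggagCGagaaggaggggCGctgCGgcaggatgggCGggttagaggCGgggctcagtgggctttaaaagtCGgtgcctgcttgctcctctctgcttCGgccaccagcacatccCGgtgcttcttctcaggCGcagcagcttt
Grb10, upstream start, chr11:12037371-12037670, minus strand: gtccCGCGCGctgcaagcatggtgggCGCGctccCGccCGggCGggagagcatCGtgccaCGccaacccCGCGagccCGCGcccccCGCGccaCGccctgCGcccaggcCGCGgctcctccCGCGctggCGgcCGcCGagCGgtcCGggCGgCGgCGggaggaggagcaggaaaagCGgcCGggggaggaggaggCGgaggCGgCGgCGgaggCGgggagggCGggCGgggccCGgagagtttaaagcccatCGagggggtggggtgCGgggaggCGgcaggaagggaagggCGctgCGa
Grb10, downstream start, chr11:12027922-12028221, minus strand: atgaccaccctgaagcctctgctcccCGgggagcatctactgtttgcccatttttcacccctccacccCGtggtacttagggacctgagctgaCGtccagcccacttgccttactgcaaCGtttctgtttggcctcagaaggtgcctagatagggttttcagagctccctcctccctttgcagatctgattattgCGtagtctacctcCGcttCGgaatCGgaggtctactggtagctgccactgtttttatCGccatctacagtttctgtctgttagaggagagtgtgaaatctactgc
The Peg3 window holds 13 CG dinucleotides, and 37.9% of the 32817 mouse promoter windows of this length hold at least as many. Mest has 8 at the upstream and 17 at the downstream start, reached by 48.6% and 31.4% of all windows. The upstream start of Grb10 holds 45, a number reached by 1.93% of windows, and the downstream start 9, reached by 45.8%. CG reads the same on both strands, so each count covers both. RefSeq windows were found for 8 of the 10 genes, with 1 to 26 CG at the starts of Igf2, Dlk1, Meg3, Ndn and Plagl1.

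Mest had the highest level of the 10 genes in inguinal WAT on HFD when levels were divided by gene length. It averaged 319 CPM per kb ± 46.7 (SD, n = 8) in WT mice, ahead of Peg3 at 22.7 ± 9.42, Cdkn1c at 10.3 ± 2.6 and Ndn at 8.61 ± 1.54. The ranges of Mest and Peg3 did not overlap, whereas the ranges of neighbours from Peg3 down to Grb10 (5.8 ± 0.712) did. Meg3 (2.84 ± 0.825), H19, Plagl1, Dlk1 and Igf2 lay lower still, the last at 0.0474 CPM per kb. BAT of WT mice had another order: Cdkn1c led with 63.6 CPM per kb ± 30.6 (SD, n = 6), then Ndn with 20.1 ± 3.23 and Mest with 6.42 ± 3.36, and Plagl1 came last with 0.0203. In BAT the ranges from Mest through Grb10, Peg3, H19 and Meg3 to Dlk1 overlapped from each gene to the next. Igf2, the fetal growth ligand, had 0 to 21 counts per mouse over all groups, and it did not pass the filter on low counts in any comparison. The protein-coding gene Gm49394 overlaps Igf2 by 16048 bases on the same strand and had at most 5 counts per mouse. How reads shared by 2 genes were counted is not stated, so these counts do not settle the level of Igf2.

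**Figure D1:**
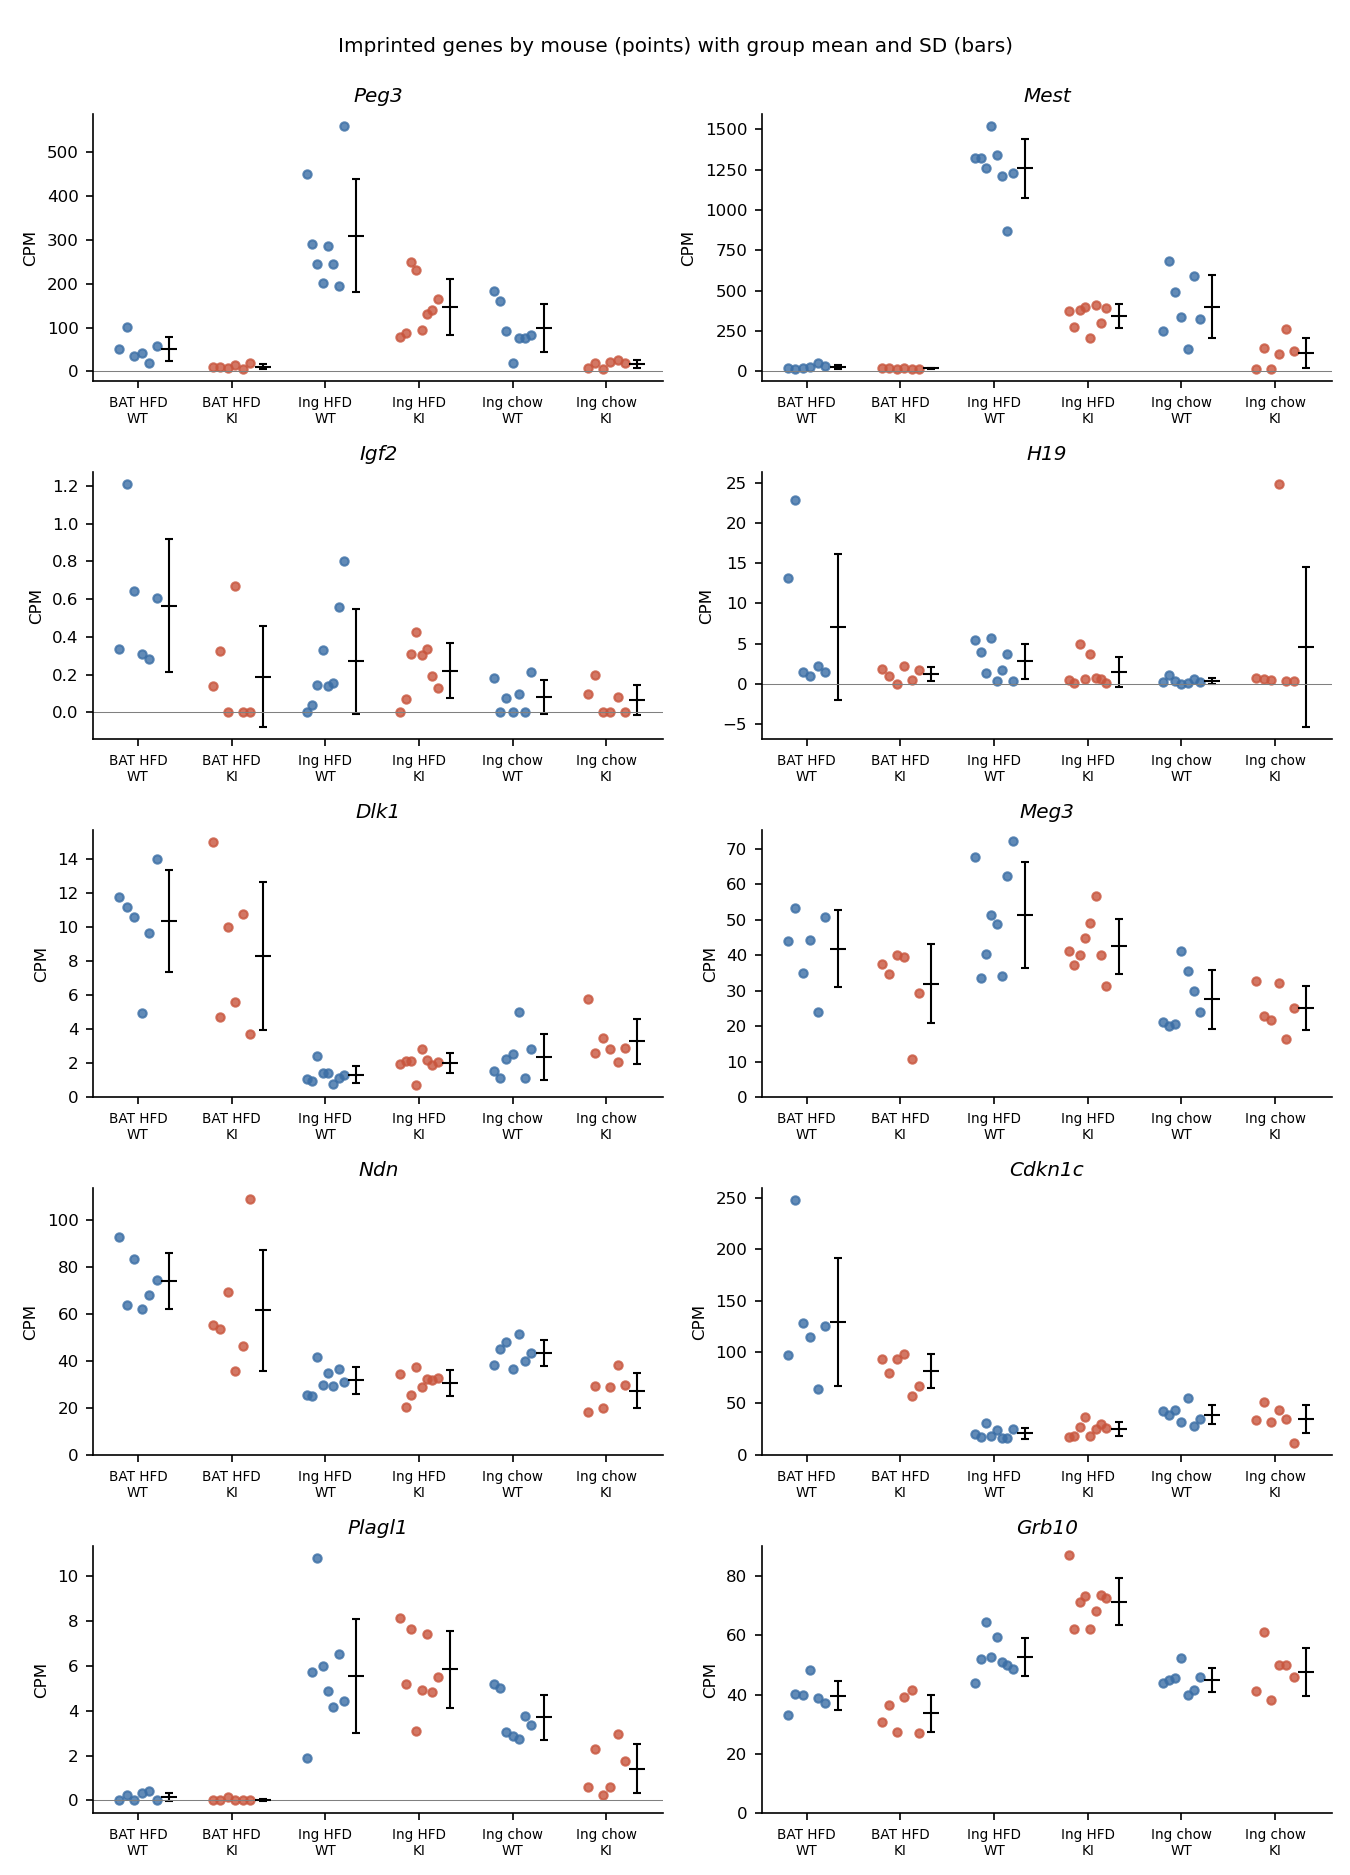
CPM of the 10 imprinted genes (y axes, linear and different for each gene) in every mouse of the 6 groups (x axis; blue WT, red KI), with the group mean and SD as black bars that can reach below 0 where the spread is wide. Mest shows the clearest gap, between 871 and 1520 CPM in WT and 205 to 408 CPM in KI inguinal WAT on HFD, and H19 shows a lone high KI mouse on chow at 24.8 CPM.

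Mest fell and Grb10 rose in KI inguinal WAT on HFD, and these were the only called genes among the 9 imprinted genes tested there. Mest, an enzyme of the alpha/beta hydrolase family, ran from 871 to 1520 CPM (median 1290) across the 8 WT mice and from 205 to 408 CPM (median 377) across the 8 KI mice. Every KI mouse lay below every WT mouse. The log2 fold change was −1.88 (SE 0.138), a 3.68-fold lower level (edgeR, adjusted p = 2.73e-08), and it stayed between −1.94 and −1.80 when each mouse was left out in turn. In bulk tissue fewer cells of a type and less RNA per cell cannot be told apart. White adipocyte markers moved too, with 3 of 6 called lower (Retn, Adipoq and Lep) and Lipe called higher, and their summed CPM was 9320 to 12400 in WT and 7740 to 11600 in KI mice. Of the 11 stromal markers 2 (Lum and Cd55) were called lower, with summed CPM of 2460 to 4060 in WT and 1990 to 3580 in KI mice. Brown adipocyte markers were 12.4 to 31.1 CPM in WT and 25 to 56.6 CPM in KI mice, with Cidea and Cox8b called higher. The part of these cell types in the fall of Mest was not tested.

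Grb10, an adaptor that binds the insulin and IGF1 receptors and damps their signal, went the other way. It measured 43.8 to 64.5 CPM (median 51.5) in WT and 62 to 87 CPM (median 71.7) in KI mice, and 6 of the 8 KI mice exceeded all WT mice. The groups overlapped, and the log2 fold change of 0.44 (SE 0.08) was small but past the threshold (edgeR, adjusted p = 0.000648). The 2 of 9 imprinted genes stand beside a background of 11.5% of 16471 genes, made up of 6.21% that rose and 5.24% that fell in the KI. The genotypes did not overlap for 4.53% of all genes and for 1 of the 9, Mest. The median log2 fold change was −0.05 over the 9 genes and 0.01 over all genes.

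Peg3, a zinc-finger protein expressed from the paternal copy, missed the threshold in these mice. Its level was 195 to 558 CPM (median 265) in WT and 77.3 to 248 CPM (median 135) in KI mice, and 6 of 8 KI mice lay below all WT mice. The log2 fold change was −1.06 (SE 0.281; edgeR, adjusted p = 0.0131). DESeq2 gave an adjusted p of 0.00386, and edgeR called Peg3 when KI mouse 3 or KI mouse 4, the highest of their group at 248 and 232 CPM, was left out, with adjusted p of 0.00603 and 0.0086. Whether these mice also gave the BAT that led to the choice of Peg3 is not stated. Tests of Peg3 in which they enter, here and between diets, may therefore depend on that choice.

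Of the other 6 genes tested on HFD edgeR called none. Dlk1 alone had an unadjusted p below 0.05, beside 5426 of all 16471 genes. The imprinted noncoding RNA H19 was 0.344 to 5.68 CPM in WT and 0.103 to 5 CPM in KI mice (log2 fold change −0.95, SE 0.761). Dlk1, a transmembrane inhibitor of adipocyte differentiation, ran from 0.765 to 2.4 CPM in WT and 0.696 to 2.82 CPM in KI mice (log2 fold change 0.62, SE 0.251; edgeR, adjusted p = 0.0919). H19 overlapped widely between genotypes. The ranges of Dlk1 met through WT mouse 3 at 2.4 CPM and KI mouse 4 at 0.696 CPM. The next highest WT mouse had 1.42 CPM and the next lowest KI mouse 1.9 CPM. With each mouse left out in turn Dlk1 was still not called (edgeR, adjusted p of 0.0189 to 0.171). Meg3, the maternally expressed noncoding RNA of the Dlk1 cluster, had a log2 fold change of −0.26 (SE 0.161), and Ndn, which restrains cell proliferation, one of −0.05 (SE 0.119). Cdkn1c, an inhibitor of cyclin-dependent kinases, stood at 0.25 (SE 0.167) and Plagl1, a zinc-finger regulator of other imprinted genes, at 0.08 (SE 0.261). The 95% intervals were −0.28 to 0.19 for Ndn and −0.43 to 0.59 for Plagl1, so that a 2-fold change of either lay outside the interval.

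Inguinal WAT on chow gave another called gene. Peg3 measured 20 to 184 CPM (median 83.1) in the 7 WT mice and 4.99 to 27.1 CPM (median 19.4) in the 6 KI mice. Only WT mouse 4, at 20 CPM, reached into the KI range, and the other WT mice had at least 75.1 CPM. Peg3 fell by 2.54 on the log2 scale (SE 0.488), which is 5.8-fold lower (edgeR, adjusted p = 0.00698). The size held at −2.72 to −2.32 with each mouse left out, while the adjusted p ran from 0.00146 to 0.0195 and passed 0.01 without any of WT mice 1, 2, 3, 5, 6 and 7 or KI mice 1, 2, 3 and 6. It was 0.0225 without the low-count filter and 0.0192 without the mouse of each group with the most muscle marker RNA. Without WT mouse 4 the log2 fold change was −2.72 (SE 0.397; edgeR, adjusted p = 0.00146), and without WT mouse 4 and KI mouse 4 it was −2.82 (SE 0.43; adjusted p = 0.00256). These mice were not among those whose BAT led to the choice of Peg3.

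Mest on chow varied between mice. It was 137 to 682 CPM (median 333) in WT and 11.5 to 261 CPM (median 117) in KI mice, with 4 of 6 KI mice below all WT mice. The log2 fold change of −1.86 was as large as on HFD, but its SE was 0.643 and it was not called (edgeR, adjusted p = 0.0924). One fit of all 6 groups called it (adjusted p = 0.00262), and without WT mouse 4 and KI mouse 4 the value was −1.89 (SE 0.753). KI mice 1 and 3, with 15.5 and 11.5 CPM of Mest, also had the least Peg3 (8.83 and 4.99 CPM), the most brown adipocyte marker RNA (855 and 550 CPM) and the most lymphocyte marker RNA (99 and 345 CPM) of the KI mice. The part of these cells in the values was not tested.

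Ndn and Plagl1 had lower values in KI mice on chow without being called. Ndn was 36.5 to 51.7 CPM in WT and 18.2 to 38.4 CPM in KI mice, and 5 of 6 KI mice lay below all WT mice (log2 fold change −0.66, SE 0.151; edgeR, adjusted p = 0.0142). DESeq2 called it, and so did edgeR without KI mouse 5, with adjusted p of 0.000968 and 0.00387. Plagl1 was 2.73 to 5.19 CPM in WT and 0.262 to 2.97 CPM in KI mice, again with 5 of 6 below (log2 fold change −1.39, SE 0.432; edgeR, adjusted p = 0.0606). Leaving out WT mouse 4 and KI mouse 4 gave −0.72 (SE 0.17) for Ndn and −1.29 (SE 0.448) for Plagl1, neither called. Dlk1 (0.48, SE 0.35), Meg3 (−0.14, SE 0.202), Cdkn1c (−0.18, SE 0.262) and Grb10 (0.09, SE 0.104) overlapped between genotypes. Leaving out WT mouse 4 gave 0.51, −0.0040, −0.22 and 0.13, and without both mice 0.54, −0.097, −0.31 and 0.11. The called share over all 14629 genes was 3.27%, with 2.06% higher and 1.22% lower, against 1 of 8 imprinted genes. None of the 8 separated the genotypes, as 4.22% of all genes did, and the median log2 fold change was −0.42 over the 8 and 0.00 over all genes (−0.000114). Summed brown adipocyte markers were 148 to 855 CPM in KI and 37.9 to 116 CPM in WT mice on chow, with Cidea and Cox8b called higher and the white adipocyte marker Retn called lower, and the part of these cells in the values was not tested.

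H19 on chow did not pass the filter. It was 0 to 1.12 CPM in the 7 WT mice and 0.309 to 0.794 CPM in 5 KI mice, whereas KI mouse 4 reached 24.8 CPM, or 253 counts. This was the mouse with 73100 CPM of skeletal muscle markers. Across the 41 samples, 7 had over 1000 CPM of these markers, and H19 ran from 3.7 to 24.8 CPM in all 7. The other samples had a median H19 of 0.626 CPM and a highest value of 5.68 CPM. In BAT the 2 samples with the most H19 were WT mice 1 and 2, at 13.1 and 22.9 CPM, with 3080 and 3500 CPM of muscle markers. The part of muscle in these values was not tested.

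**Figure D2:**
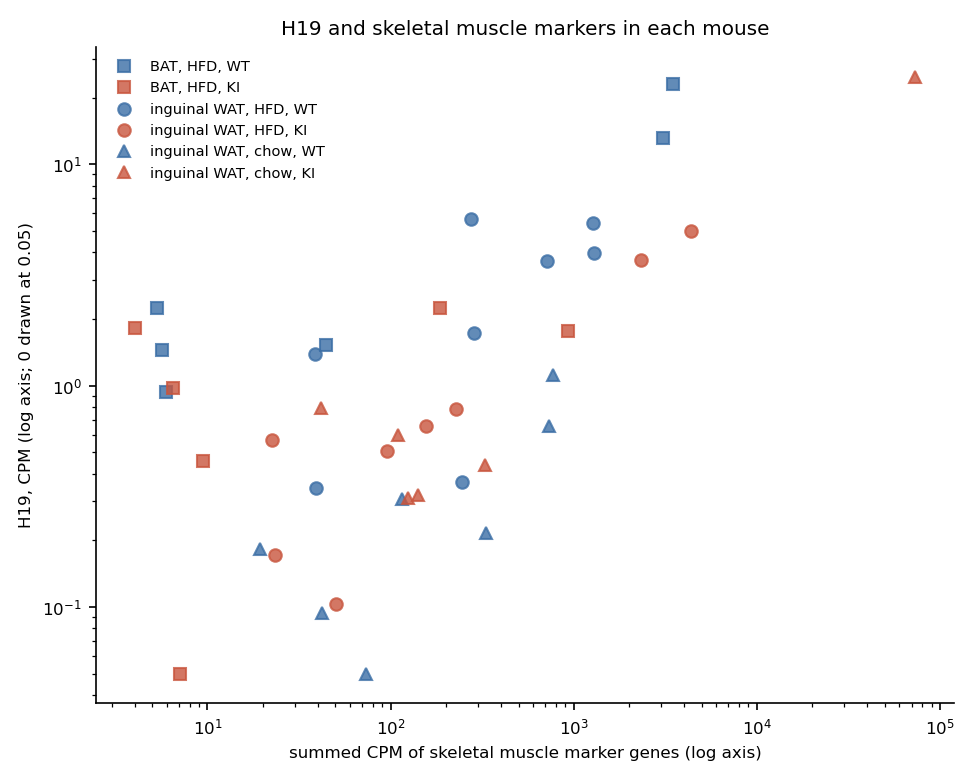
H19 (y axis, CPM, log scale, 0 drawn at 0.05) against the summed CPM of 10 skeletal muscle markers (x axis, log scale), 1 point per mouse and tissue, with symbols for tissue and diet and colours for genotype (blue WT, red KI). The 7 samples above 1000 CPM of muscle markers all had 3.7 CPM or more of H19, and the farthest point is KI mouse 4 on chow.

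In BAT on HFD the values describe the contrast that led to the choice of Peg3. Peg3 ran from 19.9 to 101 CPM (median 46.9) in the 6 WT mice and from 5.48 to 18.6 CPM (median 9.75) in the 6 KI mice, without overlap, with a log2 fold change of −2.26 (SE 0.394). WT mouse 2 was the highest for Peg3, Cdkn1c, H19, Igf2 and Meg3 and had the most muscle marker RNA. Cdkn1c was 64.1 to 248 CPM in WT and 57.5 to 98.3 CPM in KI mice (log2 fold change −0.72, SE 0.272), and H19 was 0.931 to 22.9 and 0 to 2.24 CPM (−2.58, SE 0.918). Both overlapped between the genotypes. Mest was 11.3 to 47.5 CPM in WT and 11.1 to 19.4 CPM in KI mice (−0.70, SE 0.281). Log2 fold changes of Meg3 (−0.43, SE 0.276), Dlk1 (−0.36, SE 0.318), Ndn (−0.31, SE 0.21) and Grb10 (−0.27, SE 0.129) were smaller. Plagl1 had 0 to 3 counts per mouse and, like Igf2, did not pass the filter. Over all 13267 genes of this contrast 1.83% were called (1.36% higher and 0.475% lower) and 3.69% had genotypes that did not overlap. No count of imprinted genes is read against these shares, since Peg3 was selected here. Stromal markers summed to 838 to 1690 CPM in WT and 729 to 1040 CPM in KI BAT, with Pi16 called lower, and Retn was the called white adipocyte marker, also lower. Their part in the low Peg3 was not tested.

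**Figure D3:**
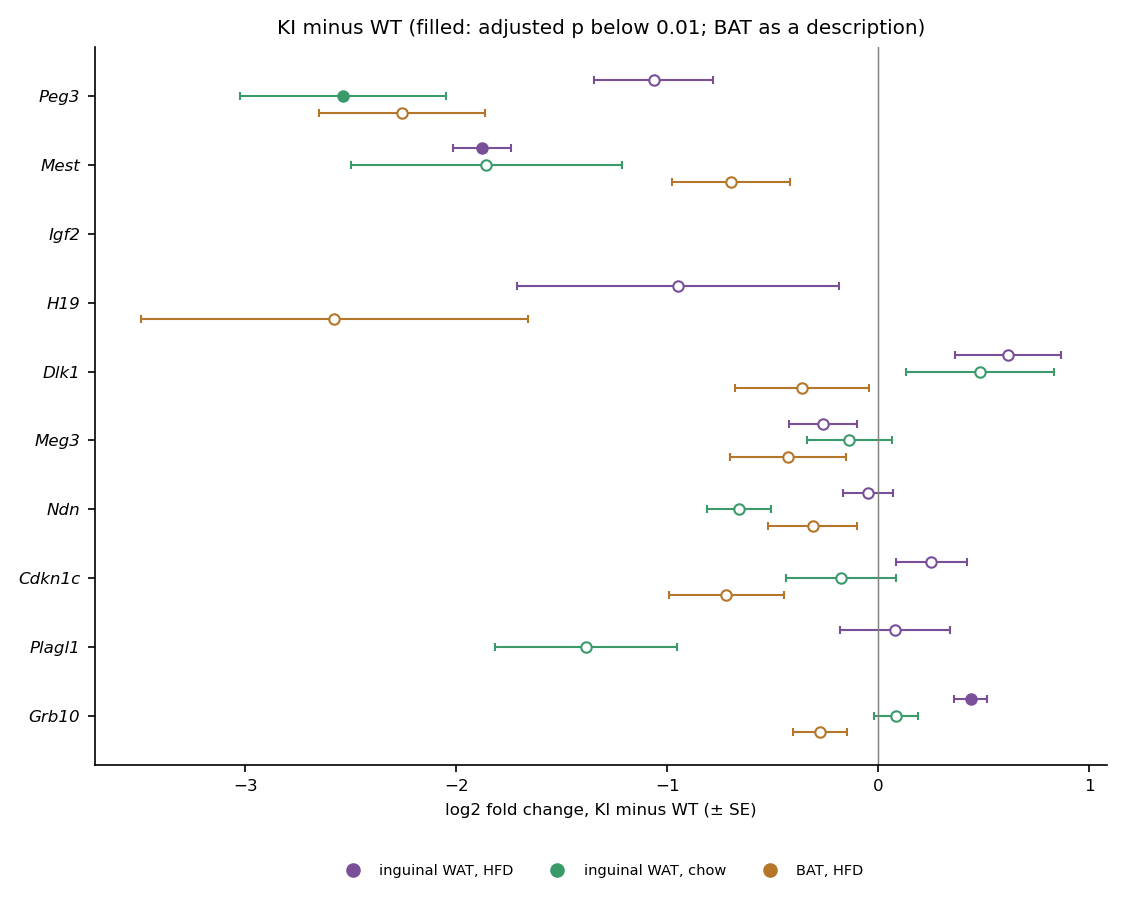
Log2 fold change of KI minus WT mice with its SE (x axis) for each imprinted gene (y axis) in inguinal WAT on HFD (purple), inguinal WAT on chow (green) and BAT on HFD (brown), with filled symbols for genes called in inguinal WAT at an adjusted p below 0.01 and open symbols throughout for BAT, where the values are a description. Peg3 stands at −1.06 on HFD and at −2.54, filled, on chow, and genes that did not pass the filter have no symbol.

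The KI effect on HFD was tested against the KI effect on chow in inguinal WAT, in a fit of the 4 inguinal groups. edgeR called 0 of 9 imprinted genes, beside 0.845% of 17400 genes, and so did DESeq2. An unadjusted p below 0.05 in edgeR was found for 5 of 9, beside 2974 of all 17400 genes. Mest showed nearly equal effects on both diets, with a difference of −0.00 (−0.003497) and a wide interval of −1.18 to 1.18. For Peg3 the effect on HFD was less negative by 1.49 (SE 0.542; edgeR, adjusted p = 0.139). Plagl1 (1.49, SE 0.501; adjusted p = 0.104), Ndn (0.63, SE 0.199; adjusted p = 0.0779) and Grb10 (0.37, SE 0.131; adjusted p = 0.124) also had positive values that did not pass edgeR's test. H19 stood at −4.54 (SE 1.44) and moved to −1.33 without KI mouse 4 on chow. Without WT mouse 4 on chow the value of Peg3 was 1.66 (SE 0.483; edgeR, adjusted p = 0.0464) and without both mice 1.76 (SE 0.508; adjusted p = 0.0519), so that it was not called in either.

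HFD was set against chow within each genotype. In WT inguinal WAT 3 of 9 genes rose on HFD and 2 fell, beside 11.7% and 16.6% of all 17400 genes, and in KI mice 5 of 9 rose and 0 fell, beside 14.1% and 16.6%. The KI mice had 7 of 9 at an unadjusted p below 0.05, beside 8694 of all 17400 genes. DESeq2 also called 5 in them, beside 5858 of all genes. The 5 genes called in WT mice were called again without WT mouse 4 and KI mouse 4 on chow, and in KI mice 4 were, with Mest the exception. Diet and deposited table cannot be told apart, since the counts on each diet came in separate tables. Endothelial markers moved with diet, with 3 of 6 called higher on HFD in WT and 4 of 6 in KI mice, and their summed CPM was 841 to 1160 on chow and 1250 to 1600 on HFD in WT mice, and 603 to 995 and 1200 to 1590 in KI mice. Of the 6 brown adipocyte markers Cox8b and Cidea were called lower on HFD in WT mice and Elovl3 higher, and 4 were called lower in KI mice, with sums of 37.9 to 116 and 12.4 to 31.1 CPM in WT and 148 to 855 and 25 to 56.6 CPM in KI mice. The part of these cells in the diet differences of the imprinted genes was not tested. Peg3 rose on HFD in both genotypes: in WT mice from 20 to 184 CPM on chow to 195 to 558 CPM on HFD (log2 fold change 1.62, SE 0.379; edgeR, adjusted p = 0.00119), and in KI mice from 4.99 to 27.1 CPM to 77.3 to 248 CPM (3.12, SE 0.437; adjusted p = 2.18e-06). The diets did not overlap in either genotype. The gain was 3.08-fold in WT and 8.67-fold in KI mice, and the difference of the gains is the interaction given above, which was not called.

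Mest rose by about the same factor in both, 3.1-fold in WT (edgeR, adjusted p = 0.00318) and 3.09-fold in KI mice (adjusted p = 0.00476). In KI mice the call was lost at the same size without the mouse of each group with the most muscle marker RNA (1.62; edgeR, adjusted p = 0.0153) and without WT mouse 4 and KI mouse 4 on chow (1.62; adjusted p = 0.0114). Meg3 rose as well, by 0.87 on the log2 scale in WT (SE 0.186) and 0.77 in KI mice (SE 0.196; edgeR, adjusted p = 0.000438 and 0.00228). Plagl1 rose in KI mice, from 0.262 to 2.97 CPM on chow to 3.09 to 8.13 CPM on HFD without overlap (2.05, SE 0.385; edgeR, adjusted p = 8.62e-05), and in WT mice it was not called (0.56, SE 0.337). Grb10 likewise rose in KI mice, from 38 to 60.9 CPM to 62 to 87 CPM (0.58, SE 0.0955; edgeR, adjusted p = 1.43e-05), and its value in WT mice was 0.21 (SE 0.0907). Neither difference between the genotypes was called.

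Cdkn1c and Ndn fell on HFD in WT mice. Cdkn1c went from 28.4 to 55.2 CPM on chow to 16.1 to 31.3 CPM on HFD, where 7 of 8 mice lay below all chow mice (−0.92, SE 0.217; edgeR, adjusted p = 0.00119). Ndn went from 36.5 to 51.7 CPM to 25 to 41.6 CPM (−0.47, SE 0.136; edgeR, adjusted p = 0.0066), a call that was lost without the low-count filter, with at least 10 counts in every mouse, in one fit of all groups, and without the mice with the most muscle RNA, with adjusted p of 0.0198, 0.0101, 0.0252 and 0.0513. In KI mice Cdkn1c was at −0.47 (SE 0.226) and Ndn at 0.16 (SE 0.144). Dlk1 had negative values in both genotypes (−0.87, SE 0.303, and −0.71, SE 0.308) and was not called. H19 had a value of 2.89 in WT (SE 1.09; edgeR, adjusted p = 0.0357) and of −1.64 in KI mice (SE 0.947). Without the muscle-rich mice the KI value turned to 0.97 and the WT value, at 3.45, was called (edgeR, adjusted p = 0.00254); DESeq2 called it with all mice (adjusted p = 0.00686), and edgeR did not without the pair of chow mice (2.68; adjusted p = 0.0115).

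**Figure D4:**
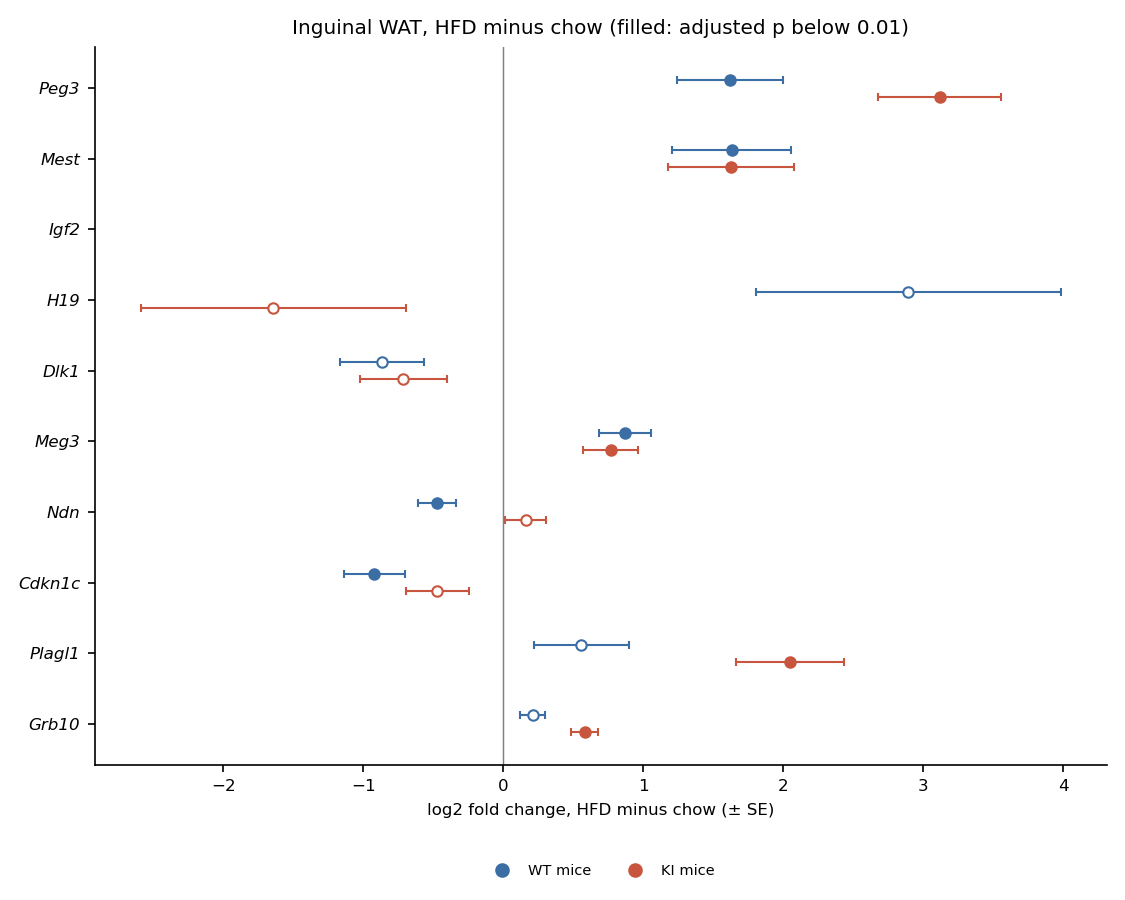
Log2 fold change of HFD minus chow in inguinal WAT with its SE (x axis) for each imprinted gene (y axis) in WT (blue) and KI mice (red), with filled symbols for genes called at an adjusted p below 0.01. Peg3, Mest and Meg3 lie right of 0 with filled symbols in both genotypes, and Peg3 reaches 3.12 in KI mice.

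BAT was then set against inguinal WAT on HFD. Apart from Peg3, which was selected on its level in BAT, 3 of 8 genes were called higher and 3 lower in BAT in both genotypes, beside 26.9% and 29% of all 17214 genes in WT mice and 28.4% and 30.7% in KI mice. Tissue and deposited table cannot be told apart, and whether the same mice gave both tissues is not stated. Dlk1 was 4.97 to 14 CPM in WT BAT and 0.765 to 2.4 CPM in WT inguinal WAT (log2 fold change 2.99, SE 0.3), and Cdkn1c was 64.1 to 248 and 16.1 to 31.3 CPM (2.63, SE 0.228). Ndn was 62.2 to 92.7 and 25 to 41.6 CPM (1.22, SE 0.172). None of these 3 overlapped between the depots in WT mice, and the KI values were 2.05 (SE 0.292), 1.70 (SE 0.225) and 0.99 (SE 0.172), with an overlap for Ndn.

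Mest, Plagl1 and Grb10 were lower in BAT. Mest was 49.9-fold lower in WT mice (log2 fold change −5.64, SE 0.265) and 21.6-fold lower in KI mice (−4.43, SE 0.252). Plagl1 had 7 counts in all over the 6 WT BAT samples and 1 count over the 6 KI samples, against 1062 and 1188 counts in inguinal WAT. With the scaled totals used for all other levels it was 31.8-fold lower in WT BAT (−4.99, SE 0.489) and 189-fold lower in KI BAT (−7.56, SE 0.645). Over unscaled library totals the ratio of inguinal to brown fat was larger, at 46.7 (95% counting interval 22.6 to 117) and 376 (67.3 to 14900). Counting intervals cover counting error only. Grb10 was 33.2 to 48.1 CPM in WT BAT and 43.8 to 64.5 CPM in WT inguinal WAT (−0.42, SE 0.104), and in KI mice the depots did not overlap (26.9 to 41.4 and 62 to 87 CPM; −1.09, SE 0.106). As a description, the log2 fold change of Peg3 was −2.58 in WT and −3.73 in KI mice. H19 and Meg3 were not called between the depots in either genotype.

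Reads in the stretch that Mest shares with its neighbour cannot be told apart, and their part in either count was not tested. Copg2, a coat protein subunit gene, lies on the opposite strand and overlaps Mest by 912 bases, and whether the counting used strand is not stated. Copg2 followed Mest in all groups of inguinal WAT: 570 to 983 CPM in WT and 164 to 302 CPM in KI mice on HFD, and 147 to 556 and 41.8 to 219 CPM on chow. Its log2 fold change was −1.83 (SE 0.128) on HFD and −1.51 (SE 0.402) on chow (edgeR, adjusted p = 1.61e-08 and 0.0324). The ratio of Copg2 to Mest stayed at 0.635 to 0.803 over the 16 HFD samples. On chow and in BAT, where Mest was lower, it reached 3.62 and 4.77. Over all 41 samples, with group means subtracted, Copg2 was the gene most like Mest of 13034 (Pearson r = 0.925), a description over points that share a library. Cdkn1c has the same limit, since the antisense gene Gm44732 overlaps it by 892 bases and was most like it (r = 0.853), with 28.4 to 120 CPM in WT BAT. Peg3, Dlk1 and Grb10 overlap no annotated gene.

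**Figure D5:**
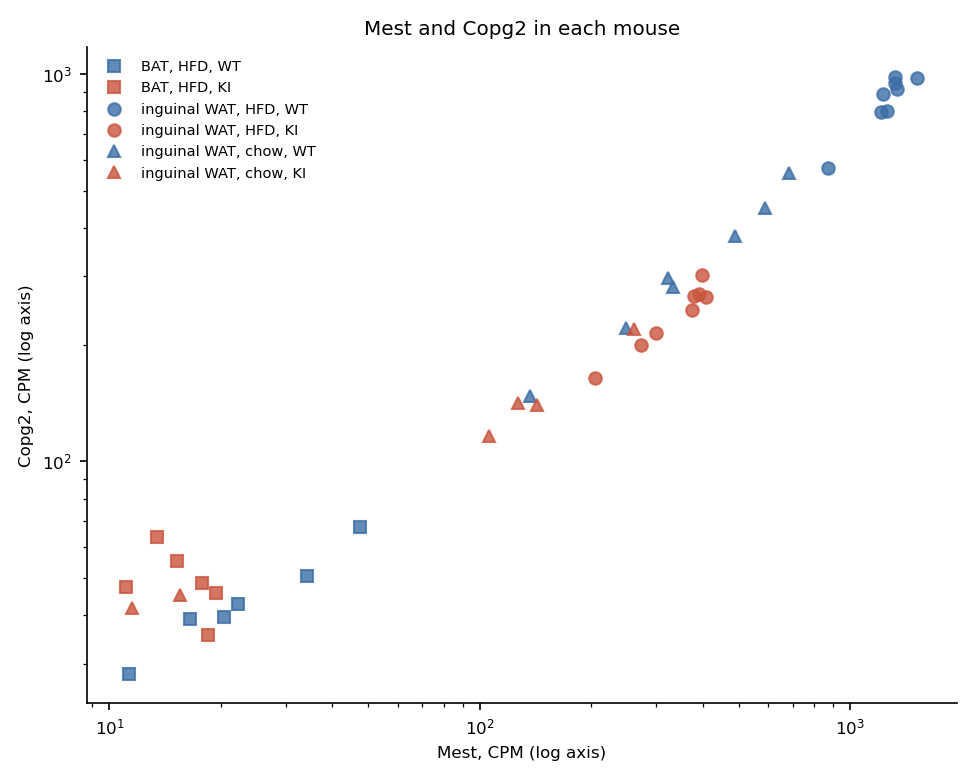
Copg2 (y axis, CPM, log scale) against Mest (x axis, CPM, log scale), 1 point per mouse and tissue, with squares for BAT, circles for inguinal WAT on HFD and triangles for chow, blue for WT and red for KI. Most inguinal points lie along a line over more than a factor of 10 in Mest, and the WT mice on HFD sit at its top. KI mice 1 and 3 on chow lie above the line, with 2.91 and 3.62 times as much Copg2 as Mest. BAT samples with under 48 CPM of Mest keep 28.3 to 67.5 CPM of Copg2.

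The genes that most resembled Peg3 across the 41 samples, by Pearson r of log2 CPM with group means subtracted, were Spaca6 (0.717), E130102H24Rik (0.691), Mycbp2 (0.689), Palm (0.688) and Trim67 (0.676). By Spearman rank correlation 1 of these 5, Spaca6, was among the first 5. Without WT mouse 4 and KI mouse 4 on chow, r for the 5 was 0.578 to 0.7 over 39 samples. Pairs among 7 of the 10 imprinted genes were compared in the same way. The highest over all samples was Mest with Grb10 (r = 0.437), then Peg3 with Cdkn1c (0.41) and Peg3 with Mest (0.33), and the lowest was Mest with Dlk1 (−0.392). The pair of Peg3 and Mest differed between sets, at 0.402 on HFD and 0.6 on chow in inguinal WAT and −0.617 in BAT. Other pairs did so too: Ndn with Grb10 was at 0.673 on HFD and −0.816 in BAT, and Mest with Ndn at 0.744 on chow and −0.336 in BAT. These values are a description over points that share a library.

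Of 68 other imprinted genes in the tables, 52 were tested in inguinal WAT on HFD, of which 3 rose and 6 fell in the KI, beside 6.21% and 5.24% of all genes. The 6 include Copg2, which overlaps Mest by 912 bases, so the count may in part be the Mest result again, which was not tested. The counts between diets and between depots with all mice, given below, include Copg2 too. Cobl, an actin nucleator 198 kb from Grb10, was highest at 1.86 (SE 0.202), and besides Copg2 the largest falls were those of Tfpi2 (−1.74, SE 0.193), Klf14 (−1.47, SE 0.161) and Slc22a2 (−0.76, SE 0.16; edgeR, adjusted p = 0.00207). Klf14, an adipose transcription factor gene 208 kb from Mest, had a mean of 26.3 CPM in WT against 9.5 CPM in KI mice. On chow 1 of 48 rose, again Cobl (2.85, SE 0.565), and 1 fell, again Klf14 (−2.18, SE 0.432; edgeR, adjusted p = 0.00717 and 0.00689), beside 2.06% and 1.22% of all genes. Without WT mouse 4 these were called again, and Zim1, a zinc-finger gene 7.44 kb from Peg3, was called lower as well (−2.91, SE 0.497; edgeR, adjusted p = 0.0026). In BAT edgeR called 0 of 37, beside 1.83% of all genes. An unadjusted p below 0.05 was found for 6 of 37, beside 3242 of all 13267 genes. DESeq2 called 3, beside 715 of all 13267 genes. The medians of the lists were −0.10 on HFD, −0.10 on chow and 0.01 in BAT, beside 0.01, 0.00 and −0.01 over all genes. Between diets 11 rose and 7 fell on HFD in WT mice and 13 rose and 5 fell in KI mice, out of 53, beside 11.7% and 16.6% of all genes in WT and 14.1% and 16.6% in KI mice. Leaving out WT mouse 4 and KI mouse 4 on chow gave 15 and 7, and 12 and 4. Zim1 rose most in both, by 1.96 (SE 0.463) and 3.81 (SE 0.586), then Peg10 by 1.49 and 2.46 and Klf14 by 1.47 and 2.20. Nnat fell in WT mice, from 2940 to 1230 CPM on average. The KI effect differed between the diets for 0 of 53, beside 0.845% of all genes. Without WT mouse 4 on chow 1 of 53 was called, beside 1.19% of all genes. This was Nnat (2.05, SE 0.41; edgeR, adjusted p = 0.005), with diet values of −1.43 (SE 0.286) in WT and 0.62 (SE 0.291) in KI mice. It was called without both chow mice too (2.10, SE 0.431; edgeR, adjusted p = 0.00638). BAT held 9 higher and 20 lower of 52 in WT (26.9% and 29% of all genes) and 12 and 26 in KI mice (28.4% and 30.7%), with Klf14, at 0.354 CPM in WT BAT against 26.3 CPM, the largest difference.

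The IGF system, through which several imprinted genes act, was covered by 21 genes. In inguinal WAT on HFD 3 of 16 rose and 1 fell in KI mice, beside 6.21% and 5.24% of all genes. Igfbp4, a binding protein that holds IGFs, rose from 366 to 939 CPM on average (log2 fold change 1.36, SE 0.12), Stc2, an inhibitor of the protease that frees IGFs, from 22.3 to 57.6 CPM (1.38, SE 0.16), and Igf2bp2, an RNA-binding protein, from 6.4 to 11.2 CPM (0.81, SE 0.184). Igfals, the acid-labile subunit that stabilizes IGF1 in complexes, fell from 93.6 to 29.5 CPM (−1.66, SE 0.142; edgeR, adjusted p = 2.09e-07) and fell on chow too, from 78.5 to 24.2 CPM (−1.70, SE 0.254; adjusted p = 0.00117), as the only called gene of 16 there, beside 3.27% of all genes. Without WT mouse 4 on chow it was −1.68 (adjusted p = 0.00232). The KI effect on Igfbp4 differed between the diets by 0.94 (SE 0.188; edgeR, adjusted p = 0.0054), the single call of 17 in that test beside 0.845% of all genes, and without both chow mice by 0.92 (adjusted p = 0.00702). In BAT edgeR called 0 of 15, beside 1.83% of all genes. An unadjusted p below 0.05 was found for 5 of 15, beside 3242 of all 13267 genes. DESeq2 called 2, beside 715 of all 13267 genes. Between diets 1 of 17 rose and 2 fell on HFD in WT mice, beside 11.7% and 16.6% of all genes, and 5 rose and 2 fell in KI mice, beside 14.1% and 16.6%. The counts without WT mouse 4 on chow were 2 and 2 in WT and 5 and 2 in KI mice, and without both chow mice 2 and 3, and 4 and 2. With all mice Igfbp6 fell by 1.66 and 1.27 on the log2 scale. Between depots 10 of 16 were lower in BAT in each genotype and the rest were not called, beside 29% and 30.7% of all genes lower, led by Igfals in WT (−4.27, SE 0.265) and Stc2 in KI mice (−5.04, SE 0.337).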

How the data were processed

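Male WT and KI mice were compared in 3 sets: BAT on HFD, inguinal WAT on HFD and inguinal WAT on chow. According to the methods, libraries were made with TruSeq RNA kits (from polyA RNA per the labels), trimmed with cutadapt, aligned to GRCm38 with STAR, sorted with SAMtools and counted with featureCounts; tool versions and the strand setting are not given in the sources used here. The authors deposited 3 tables of raw read counts per gene, not normalized, with 54838 entries each and a gene length used here for levels per kb. For inguinal WAT on HFD each mouse had 2 technical libraries and 1 column, taken as both together. Entries without length or count (1884) and repeated symbols with identical counts (101) were left out, and 52853 genes remained, among which 37 are encoded by mitochondrial DNA.

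Counts were tested with edgeR 4.0.16 in R 4.3.3 (TMM, filterByExpr, robust quasi-likelihood F test), each set on its own for genotype, the 4 inguinal groups together for diet and its interaction, and the 4 HFD groups together for depot. Benjamini-Hochberg adjustment ran over all genes tested, with a threshold of 0.01. The SE was obtained by dividing the size of the log2 fold change by the root of F, and 95% intervals use the normal quantile of the SE. CPM used TMM factors over all 41 columns. The alternatives were DESeq2 1.42.0, RLE factors, other filters, mitochondrially encoded genes left out, a threshold of 0.05, a mouse-number block, one fit of all groups and each mouse left out; leaving out the mice with the most muscle or lymphocyte RNA, or chow WT mouse 4 and KI mouse 4, was added after seeing the data. The scripts were tested on simulated counts. The genes and lists were chosen with earlier results of these data known. Text names all 10 genes, up to 5 called genes per list and comparison, overlapping genes, the genes most alike in pattern and Mfn2.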

Additional observations from a re-analysis of the deposited data

Results flagged for a closer look

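In the 60 combinations of an imprinted gene and a group, 7 held a mouse whose gap to its nearest neighbour was a large part of the group's range (Dixon's 95% limit), where chance gives about 1 in 20. H19 reached 24.8 CPM in KI mouse 4 on chow, with the next mouse at 0.794 CPM and muscle markers of 73100 CPM in that mouse. Cdkn1c was 248 CPM in WT mouse 2 of the BAT set, next to 128 CPM, in the BAT sample with the most muscle markers (3500 CPM). Dlk1 was high in WT mouse 3 (2.4 CPM, 50 counts) and low in KI mouse 4 (0.696 CPM, 18 counts) of inguinal WAT on HFD. Meg3 was low in KI mouse 5 of the BAT set, at 10.8 CPM next to 29.5 CPM. Grb10 was high in KI mouse 1 of inguinal WAT on HFD, at 87 CPM next to 73.4 CPM. Plagl1 in KI mouse 3 of the BAT set stands out by 1 count (0.145 CPM) where the others have 0.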

How the results depend on the processing

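The count of called imprinted genes was 1 on chow and became 2 with DESeq2, with a threshold of 0.05 and in one fit of all 6 groups, 0 without a low-count filter, and 0 to 2 with mice left out. In BAT, where Peg3 was selected and the count is a description, it was 1, then 0 without the filter and 0 to 1 with a mouse left out. On HFD it stayed at 2 or 3, and the count of 0 for the diet difference did not move. Between diets it was 5 in each genotype, 4 to 7 in WT and 4 to 5 in KI mice under the alternatives, and between depots 7 throughout. The depot count includes Peg3, which was selected on its level in BAT. Without Peg3 the main depot count was 6 in each genotype. With mouse number as a block the count was 2 on HFD, 0 on chow and 1 in BAT, and calls over all genes went from 1886 to 1545, 479 to 119 and 243 to 363. The numbers were not taken to pair the mice. Same-numbered WT and KI mice had correlated deviations above 0.1 in 2 of 8, 2 of 6 and 3 of 6 cases. WT mice correlated best with the KI mouse of their own number in 1 of 8, 1 of 6 and 3 of 6 cases. The 3 in BAT had r of 0.184, 0.323 and 0.42, and whether the numbers pair the mice in that set was not tested. Outside single-mouse omissions, 568 of 592 gene values kept direction and side of the threshold, 10 became weaker, 9 stronger and 5 reversed. These were Meg3 on chow, which ran from −0.29 without the muscle-rich to 0.025 without the lymphocyte-rich mice, H19 in KI mice for depot (0.25 without the muscle-rich mice) and, in 2 settings, for diet (−1.71 without the lymphocyte-rich mice, 0.97 without the muscle-rich and 1.57 without chow WT mouse 4 and KI mouse 4), and Mest in the diet difference (0.013 without those chow mice). With a mouse left out in turn, signs also turned for Ndn (−0.095 to 0.016) and Plagl1 (−0.058 to 0.28) on HFD, Cdkn1c on chow (−0.33 to 0.0060), and Mest (−0.25 to 0.46) and Dlk1 (−0.15 to 0.38) in the diet difference. Calls over all genes moved by over 1.5 times from 1886 on HFD to 3448 (0.05) and 1242 (6 groups), from 479 on chow to 1121 (DESeq2), 1263 and 1088, and to 265 without the muscle-rich mice, from 243 in BAT to 715, 952 and 835, and from 147 for the diet difference to 414, 555 and, without the muscle-rich mice, 60. With 1 mouse left out, they ran from 285 to 509 on chow (285, 289, 293 and 313 without WT mouse 6, 3, 2 or 7 and 297 without KI mouse 2) and from 134 to 313 in BAT (134, 148 and 161 without WT mouse 6, 4 or 3 and 144 without KI mouse 2). For the diet difference they ran from 69 (without chow KI mouse 1) to 269 (without chow KI mouse 5), and were 71 to 97 without any of chow WT mice 1, 3, 5 and 7, chow KI mouse 3, HFD WT mice 1, 2, 4, 5 and 6 and HFD KI mice 3 to 8. The cause was not tested. Low counts limit the values of Igf2 in every group and of Plagl1 in BAT, which had at most 21 and 3 counts per mouse.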
